A study of Homo sapiens with 40 samples.

Results

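The 19p12 zinc finger cluster is a run of Krüppel-associated box (KRAB) zinc finger genes on the short arm of human chromosome 19, next to the centromere, with ZNF91 as its best known gene. It was taken as 35 named genes of the deposited gene table, of 62486 gene identifiers in all, together with the peaks of 5 chromatin marks and the Hi-C compartment bins between 19.7 and 24.4 Mb of chromosome 19 (GRCh37). The rule that lists the genes uses names and position; the cluster itself was picked with earlier results of these data known.

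The series set control A549 cells (CT) against A549 cells with SETDB1 knockout (KO). A549 is an established human lung adenocarcinoma line, and the labels give it a K-RAS mutation that both genotypes share. The knockout was made by CRISPR/Cas9 with guide RNAs cloned into the PX458 plasmid; the labels do not say whether the knockout cells are 1 clone or a pool, nor what the control cells received. RNA-seq had 3 libraries per genotype and Hi-C had 2. ChIP-seq had 2 per genotype for each of CTCF and the histone marks H3K9me3, H3K27me3, H3K4me3 and H3K27ac, with inputs that are not used here. The labels do not say that replicates came from separate cultures, so the p-values measure the spread between these libraries, which may be technical.

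KRAB zinc finger proteins bind DNA, most often within transposable elements, through arrays of C2H2 fingers, and their KRAB domain recruits the corepressor TRIM28. TRIM28 in turn brings SETDB1, which trimethylates lysine 9 of histone H3, the mark H3K9me3 of silent chromatin. The zinc finger gene clusters are themselves wide H3K9me3 domains, and ZNF274, another KRAB zinc finger protein, is known to recruit SETDB1 to the zinc finger coding ends of such genes.

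The genes of the cluster are known to have arisen by tandem duplication, and their promoters were alike. Of the 35 members, 27 matched a RefSeq promoter (GRCh38.p14), and the 250 bases before their starts were compared. Over the 351 pairs of these 27 sequences the median identity in a global alignment was 76.7%, from 46.9% to 92.0%, the last between ZNF714 and ZNF431. Both most frequent words of 12 bases that do not overlap each other, found by counting words over the member promoters and searched on both strands, were CTGTCACTCAGG and GTCCAATCAGGC. Each was present in 18 of 27 members (66.7%). Over all 27305 genes with a promoter of the same length, the first was in 36 (0.132%), 30 of them ZNF genes, and the second in 31 (0.114%), 27 of them ZNF genes. These counts include the 18 members. The words were picked for their frequency among members, so the gap between the shares follows in part from that choice. The second holds the letters CCAAT, the core of the CCAAT box, which were present on either strand in 27 of 27 members and in 37.0% of all promoters.

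The promoters of 4 members are shown because 2 of these genes had almost no RNA in control cells and a high level in KO cells (ZNF91, ZNF486), while the other two were already expressed in control cells and changed least (ZNF714, ZNF254). Each run gives the 250 bases upstream of the start, 5′ to 3′ on the strand of the gene, with the shared words in capitals; positions are on GRCh38.p14, a later build than that of the deposited files, and strands are minus, plus, plus and plus in the order shown: chr19:23395472-23395721, chr19:20166964-20167213, chr19:21081953-21082202 and chr19:24086937-24087186.
ZNF91: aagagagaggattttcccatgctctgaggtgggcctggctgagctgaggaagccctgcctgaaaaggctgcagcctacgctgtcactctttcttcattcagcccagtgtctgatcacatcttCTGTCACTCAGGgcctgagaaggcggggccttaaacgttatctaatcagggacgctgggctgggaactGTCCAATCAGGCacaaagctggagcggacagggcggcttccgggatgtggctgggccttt
ZNF486: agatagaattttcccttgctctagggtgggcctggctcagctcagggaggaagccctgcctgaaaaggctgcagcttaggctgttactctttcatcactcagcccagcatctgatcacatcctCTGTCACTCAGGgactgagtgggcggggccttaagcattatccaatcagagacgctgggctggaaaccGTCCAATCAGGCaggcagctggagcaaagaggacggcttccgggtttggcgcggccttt
ZNF714: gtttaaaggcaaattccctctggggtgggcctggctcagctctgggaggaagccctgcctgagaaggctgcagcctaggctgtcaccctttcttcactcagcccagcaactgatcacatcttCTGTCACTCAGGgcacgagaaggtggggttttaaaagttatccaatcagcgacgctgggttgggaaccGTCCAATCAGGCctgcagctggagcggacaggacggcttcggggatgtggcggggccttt
ZNF254: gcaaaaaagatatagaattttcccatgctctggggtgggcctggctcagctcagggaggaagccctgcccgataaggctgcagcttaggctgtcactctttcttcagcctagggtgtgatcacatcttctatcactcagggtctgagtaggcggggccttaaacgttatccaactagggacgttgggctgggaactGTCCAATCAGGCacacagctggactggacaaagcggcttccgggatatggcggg
The words start at bases 123 and 191 in ZNF91, 124 and 192 in ZNF486, and 123 and 191 in ZNF714; ZNF254 holds the second alone, at base 197. The ZNF91 promoter was 84.3% identical to that of ZNF486, 82.9% to that of ZNF714 and 82.7% to that of ZNF254. Both words occurred in promoters of genes with and without RNA in control cells: GTCCAATCAGGC was in 5 of the 11 matched members without a control count and in 8 of the 10 with at least 30, CTGTCACTCAGG in 10 of 11 and 4 of 10. The median number of CG pairs in the 250 bases was 8 in members against 11 in all promoters.

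RNA-seq libraries held 18065062 to 29338718 counts in control and 22548748 to 48364919 in KO cells. Transcripts of SETDB1, the targeted gene, were measured at 37.5, 39.6 and 38.7 CPM (counts scaled to a common library size) in the control libraries and at 23.4, 21.2 and 21.1 CPM in the KO libraries. SETDB1 RNA fell by 0.82 on the log2 scale (SE 0.06, quasi-likelihood test in edgeR, Benjamini-Hochberg adjusted p 1.7e-12); a transcript count does not show whether protein remained. Epithelial keratin and adhesion markers summed to 4331 to 4845 CPM in control and 10926 to 11846 CPM in KO libraries. Leukocyte, fibroblast and endothelial marker lists summed to at most 5.87 CPM in any library, with CD3E, COL1A2 and DCN at 0 in all 6; the endothelial sum was 0.277 to 0.375 CPM in control and 3.88 to 5.25 CPM in KO libraries, almost all of it CDH5. The part of these shifts in the results on the cluster was not tested.

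All 35 cluster genes rose in SETDB1 KO cells. Together they took 113, 111 and 112 CPM, here of total counts, in the control libraries, and 1175, 1112 and 1101 in the KO libraries, a 10.1-fold higher mean. Each of the 35 genes passed edgeR's test as higher in KO (adjusted p under 0.05), whereas 32.8% of the 17767 genes tested did. None was lower, at an adjusted or an unadjusted p under 0.05, and DESeq2 and limma voom likewise called 35 higher and 0 lower. In 35 of 35 genes every KO library lay above every control library, which was true of 34.1% of all genes tested. At least a 2-fold rise was called for 29 members and for 9.86% of all genes. Only 12 members would have passed the filter on low counts on the control libraries alone; the other 23 passed because of their KO level and so had to differ, and the counts over all 35 are given as a description.

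**Figure D1:**
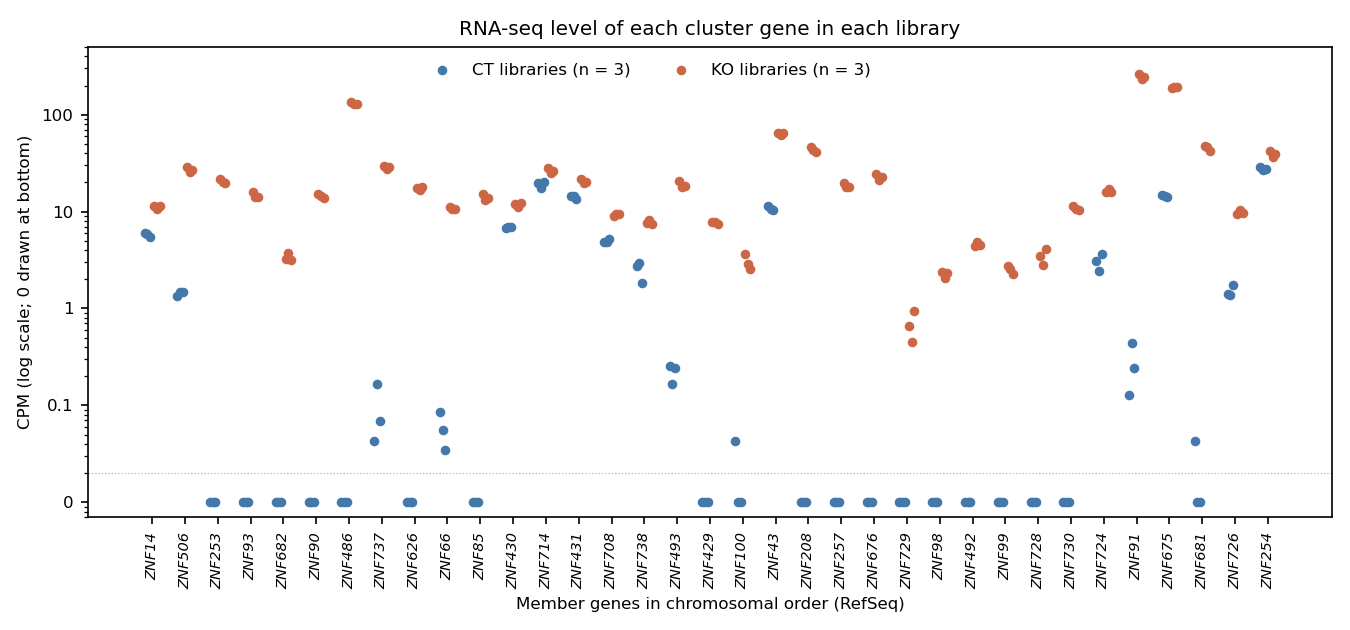
RNA-seq level of the 35 cluster genes in chromosomal order, in CPM on a log scale with 0 drawn below the dotted line; each point is 1 library, 3 per genotype. In every gene the KO points lie above the control points, and 17 genes have all 3 control points at 0.

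The genes fell into 3 classes by their control level. No control library held a count for 17 members: ZNF253, ZNF93, ZNF682, ZNF90, ZNF486, ZNF626, ZNF85, ZNF429, ZNF208, ZNF257, ZNF676, ZNF729, ZNF98, ZNF492, ZNF99, ZNF728 and ZNF730. Among the 17767 genes tested, 125 had no control count, and all of these passed the filter on low counts through their KO level. Genes without a control count that were also low or absent in KO were not tested and are not in this number. With a floor of 3 counts over the control group, these members were at least 14.5-fold (ZNF729) to at least 3075-fold (ZNF486) higher in KO. A further 6 members, ZNF737, ZNF66, ZNF493, ZNF100, ZNF91 and ZNF681, had 1 to 29 counts in all control libraries together, and 12 had at least 30.

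ZNF486 had no count in any control library and 135, 128 and 130 CPM in the KO libraries. Its KO replicates lay close together (131 ± 3.53 CPM, SD, n = 3), and its fitted log2 fold change was 14.82 (SE 0.18, adjusted p 1.3e-28 by edgeR). For a gene at 0 in one group the fitted value depends on the small count that edgeR adds, and the lower bound of 3075-fold does not. ZNF208 went from 0 in all control libraries to 46.5, 42.8 and 40.8 CPM, at least 1020-fold higher (fitted log2 fold change 13.22, SE 0.24, edgeR adjusted p 1.4e-24). ZNF208 is the first gene of a row of 9 consecutive members, ZNF208 to ZNF730, without a control count.

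ZNF676, in the same row, was at 0 in control and at 24.7, 21.0 and 22.6 CPM in KO libraries, at least 525-fold higher (12.28, SE 0.30, adjusted p 5.2e-22, in the same order of statistics from edgeR). ZNF257, its neighbour, was at 0 and then at 19.7, 17.9 and 17.8 CPM, at least 433-fold higher (11.99, SE 0.31, adjusted p 1.2e-21, edgeR). Further along the row, KO levels were low except in its last gene, ZNF730, with a mean of 10.8 CPM. Mean KO values of the consecutive genes ZNF729, ZNF98, ZNF492, ZNF99 and ZNF728 were 0.679, 2.26, 4.59, 2.53 and 3.47 CPM. ZNF729 had the widest relative spread of any member in KO libraries, with 0.655, 0.446 and 0.936 CPM.

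A second row of 5 members without a control count, ZNF253 to ZNF486, lay nearer to ZNF14, and neither row reached an end of the cluster. ZNF253 rose from 0 to 21.8, 20.3 and 19.7 CPM, at least 484-fold (12.15, SE 0.29, adjusted p 3.8e-22, edgeR). ZNF93, a repressor of LINE-1 retrotransposons of the L1PA families, rose from 0 in each control library to 15.8, 14.1 and 14.3 CPM, at least 343-fold (11.66, SE 0.33, adjusted p 1.1e-20, edgeR). ZNF90 was almost level with it, at 15.4, 14.4 and 13.8 CPM in KO and 0 in control, at least 342-fold higher (11.64, SE 0.33, adjusted p 9.2e-21, edgeR).

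ZNF626 and ZNF85, both without a control count, stood apart from these rows. ZNF626 had 0 CPM in control and 17.4, 16.7 and 17.8 CPM in KO libraries, at least 404-fold more (11.89, SE 0.30, adjusted p 1.4e-21, edgeR). ZNF85 had 0 CPM in control and 15.4, 13.3 and 13.7 CPM in KO libraries, at least 328-fold more (11.60, SE 0.34, adjusted p 2.1e-20, edgeR).

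ZNF91, a repressor of SVA retrotransposons, was nearly silent rather than silent in control cells. It had 3, 8 and 7 counts in the control libraries (0.127, 0.442 and 0.241 CPM) and 6007, 11556 and 5467 in the KO libraries (262, 234 and 244 CPM). The mean went from 0.270 ± 0.159 to 247 ± 14.1 CPM (SD, n = 3), or 9.89 on the log2 scale (SE 0.11, adjusted p 5.1e-29 by edgeR), and no control library came near a KO library. ZNF681, 2 genes further on in member order, had 1 count in the first control library and none in the other two, against 47.3, 46.3 and 41.9 CPM in KO libraries. Its pooled ratio was 3221, with a 95% counting interval of 578 to 127247, and its log2 fold change 11.24 (SE 0.21, edgeR adjusted p 4.5e-26); that value was 13.33 without CT replicate 1, the library that holds the single count, and 10.63 without CT replicate 3. ZNF100 had 1 control count as well, in the same library, and a pooled ratio of 212 (37.8 to 8418).

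The 12 members with at least 30 control counts are those whose change can be sized without a floor. All 12 were called higher, against 30.2% of the 16823 tested genes with such control counts, and their median log2 fold change was 1.33, against -0.027 for those genes. ZNF506 changed most among them, from 1.44 ± 0.0722 to 26.95 ± 1.45 CPM, 18.7-fold. ZNF675, whose product was described as an inhibitor of TRAF6 signalling, went from 14.5 ± 0.451 to 191 ± 0.974 CPM, 13.2-fold. ZNF714 changed least, from 19.2 ± 1.51 to 26.6 ± 1.45 CPM, 1.38-fold (adjusted p 1.7e-06, edgeR), and ZNF254 went from 27.7 ± 1.04 to 39.3 ± 2.91 CPM, 1.42-fold (all SD, n = 3).

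Small changes were grouped along the chromosome. The 5 consecutive members ZNF430, ZNF714, ZNF431, ZNF708 and ZNF738 were all expressed in control cells and rose by 1.38-fold to 3.14-fold. Both outermost members, ZNF14 and ZNF254, were expressed in control cells too and rose 1.93-fold and 1.42-fold. Such genes stood directly beside genes with no control count: ZNF85 precedes ZNF430 in the order of members, and ZNF730 precedes ZNF724 (3.04 ± 0.606 to 16.3 ± 0.690 CPM, SD, n = 3).

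The makeup of the cluster's RNA changed with its amount. In control libraries ZNF254 took 24.4% of all counts on members, and the 17 silent genes none. In KO libraries ZNF91 took 21.9%, ZNF675 17.2%, ZNF486 11.7% and ZNF43 5.71%, together 56.5%. These are shares of counts, not per transcript length. The median log2 fold change over the 35 members was 8.93 as fitted and 6.37 with the 17 genes at their lower bounds, beside 0.0038 for all genes tested. The members are close paralogs, and how reads shared between them, or between a gene and an antisense neighbour, were counted is not given in the sources used here, so single values may contain reads of a relative; this bears most on members with few counts.

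Most tested genes that lie among the members but are not members also rose. Of 155 such RefSeq genes 16 were tested. By edgeR at an adjusted p under 0.05, 14 were called higher (87.5%) and 0 lower, against 32.8% higher over all genes tested. No control count was found for 9, and these had to differ to be tested. LINC01224, ZNF826P, ZNF56P and VN1R81P, with 1, 2, 17 and 36 control counts, were likewise kept by the filter on low counts only because of their KO libraries. So was LINC00663, with 19 control counts, which was not called. The counts are therefore given as a description. By fitted log2 fold change the first were ZNF723 (10.09), the long noncoding RNA LINC01224 (9.79) and ZNF725P (9.45). For ZNF723 and ZNF725P, without a control count, the lower bounds were 6.87 and 6.22 on the log2 scale, below the 6.99 of ZNF826P, which had 2 control counts. ZNF723, at 0 in control libraries, reached 4.89 ± 0.417 CPM, LINC01224 went from 0.0115 ± 0.0198 to 16.6 ± 0.957 CPM, and ZNF725P reached 3.19 ± 0.153 CPM from 0 (SD, n = 3). Pseudogenes of other families shared the direction, such as IPO5P1, with 1.03 ± 0.160 and 22.3 ± 1.78 CPM (named after its value was seen).

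Past the last gene of the cluster changes went both ways. Among the 25 tested genes that follow ZNF254, which in gene order begin on the other side of the centromere, 4 were called higher and 10 lower, with a median log2 fold change of -0.11. The 4 include LINC00662, with a log2 fold change of 0.19 (adjusted p 0.0056, edgeR), and NUDT19-DT, with 2.40 (adjusted p 1.7e-13, edgeR), both named after their values were seen. On the side of ZNF14, 13 of 25 tested genes were called higher (52.0%) and 2 lower, with a median of 0.19. This is near the level of the 885 tested chromosome 19 genes that are not zinc finger genes. Of those, 49.5% were called higher, with a median of 0.21. Over all genes tested the share called higher was 32.8%. The 5 genes nearest to the cluster, PBX4, LPAR2, GMIP, ATP13A1 and ZNF101, named for their position after the values were seen, were all called higher, with log2 fold changes of 1.31, 0.95, 0.65, 0.40 and 0.61. Of the other 20, 8 were called higher, among them TSSK6 (0.62), SLC25A42 (0.61) and UPF1 (0.18), likewise named after their values were seen. Of the 212 tested zinc finger genes of chromosome 19 outside the interval, which include ZNF101, 90.1% were called higher. No test set the near genes against the far ones. Gene order is that of RefSeq on GRCh38.p14.

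**Figure D2:**
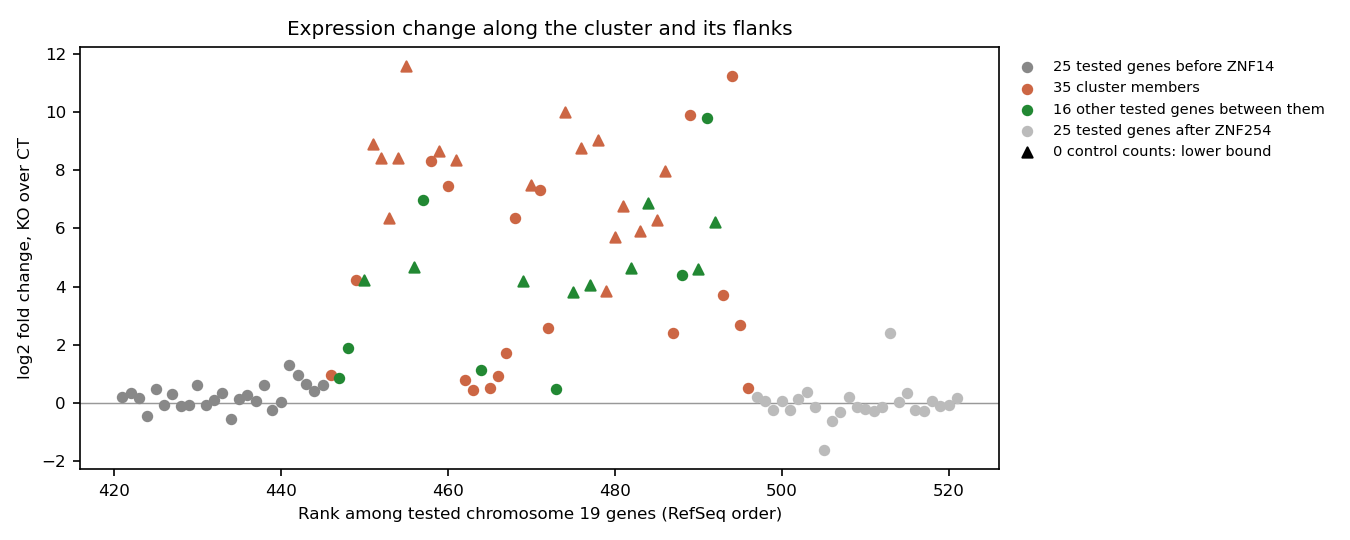
log2 fold change of KO over control (y) for the 35 members, the 16 other tested genes between them and 25 tested genes on each side, against rank among tested chromosome 19 genes (x); triangles are lower bounds of genes without a control count. The genes between ZNF14 and ZNF254 lie above 0, and those after ZNF254 mostly close to 0, with NUDT19-DT at 2.40.

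Other zinc finger genes of chromosome 19 also rose. Of 212 tested outside the interval, 191 were called higher and 4 lower, with a median log2 fold change of 1.42. Of these 212, 14 (6.60%) had no control count, against 17 of the 35 members (48.6%). A gene without a control count was tested only if its KO level passed the filter. Zinc finger genes silent in both genotypes are thus missing from the 212, whereas all 35 members were tested. These shares are therefore not on equal terms. Among genes with at least 30 control counts, the medians were 1.03 over these 167 genes and 1.33 over the 12 members, and no test of that difference was made. Of 271 zinc finger genes on other chromosomes 133 were called higher and 37 lower, with a median of 0.17. The 885 tested chromosome 19 genes that are not zinc finger genes had a median of 0.21.

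Transcripts of the silencing machinery moved in both directions. Of 29 genes, 11 were called higher (37.9%) and 12 lower (41.4%), beside 32.8% higher over all genes and 5332 of 17767 lower; nothing particular to the list is read from these counts. TRIM28, which links KRAB proteins to SETDB1, had 599 ± 39.8 CPM in control and 575 ± 26.8 CPM in KO libraries (SD, n = 3) and was not called. ATF7IP, the partner of SETDB1, rose from 65.2 ± 3.27 to 302 ± 12.7 CPM, ZNF274 from 19.7 ± 0.688 to 84.5 ± 0.796 CPM, and TRIM24 from 53.1 ± 3.46 to 147 ± 5.04 CPM. Beside SETDB1 the largest decreases were those of CBX3 (HP1 gamma) and the methyltransferase SUV39H2, with log2 fold changes of -0.46 and -0.39.

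The H3K9me3 domain over the cluster was nearly gone in KO cells. Peaks numbered 323 in control and 47 in KO cells and covered 3337 and 129 kb, 71.0% and 2.74% of the window. This is a 25.9-fold smaller length. Over the whole genome the covered share went the other way, from 11.3% to 20.5%, and on the rest of chromosome 19 it went from 28.7% to 8.67%. A single list was deposited per mark and genotype, so these values have no replicate error and no test.

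Loss ran along the whole window. In each of the 47 bins of 100 kb the covered share was lower in KO, and in 31 of them it was 0. Control shares ranged from 3.41% to 100% of a bin, with a median of 79.5%; KO shares reached at most 26.8%. Only 3.68% of the control peak length lay inside a KO peak, against 37.7% over the genome. The widest control peak, chr19:23214984-23337656, spanned 122673 bp and had no KO partner, and the widest KO peak spanned 9840 bp. What remained in KO lay within the former domain, with 95.5% of the KO length inside control peaks.

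Marks of active promoters spread over the same ground. H3K4me3, found at active promoters, went from 30 to 340 peaks and from 1.03% to 13.8% of the window, and H3K27ac, found at active promoters and enhancers, from 23 to 214 peaks and from 0.502% to 9.86%. On the rest of chromosome 19 the shares were 7.63% and 8.70% for H3K4me3 and 8.12% and 9.04% for H3K27ac. Every control peak of both marks overlapped a KO peak of the mark by at least 1 bp: 30 of 30 for H3K4me3 (95% Wilson interval 88.6% to 100%) and 23 of 23 for H3K27ac (85.7% to 100%), against 85.1% and 73.1% in the rest of the genome. KO peaks were many here, and those shared with control were wider than the control peaks. Their median widths were 2826.5 against 1667 bp for H3K4me3 and 1654 against 892 bp for H3K27ac. With an overlap of 50% of both peaks required the shares were 56.7% and 56.5%, against 77.3% and 56.4%. H3K4me3 coverage was higher in KO in 47 of 47 bins and H3K27ac coverage in 42, with none lower.

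Most new peaks overlapped former H3K9me3 peaks. Of the 310 H3K4me3 peaks found only in KO, 267 overlapped a control H3K9me3 peak (86.1%, 81.8% to 89.5%), against 19.2% of KO-only H3K4me3 peaks in the rest of the genome. For H3K27ac it was 180 of 191 (94.2%, 89.98% to 96.8%), against 15.8%. KO peaks that were shared with control cells lay there too, 24 of 30 for H3K4me3 (62.7% to 90.5%) and 14 of 23 for H3K27ac (60.9%, 40.8% to 77.8%). Control H3K9me3 peaks covered 71.0% of the window and 11.3% of the genome, and overlap beyond that was not tested. Only 7 of the 310 and 1 of the 191 touched a KO H3K9me3 peak.

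**Figure D3:**
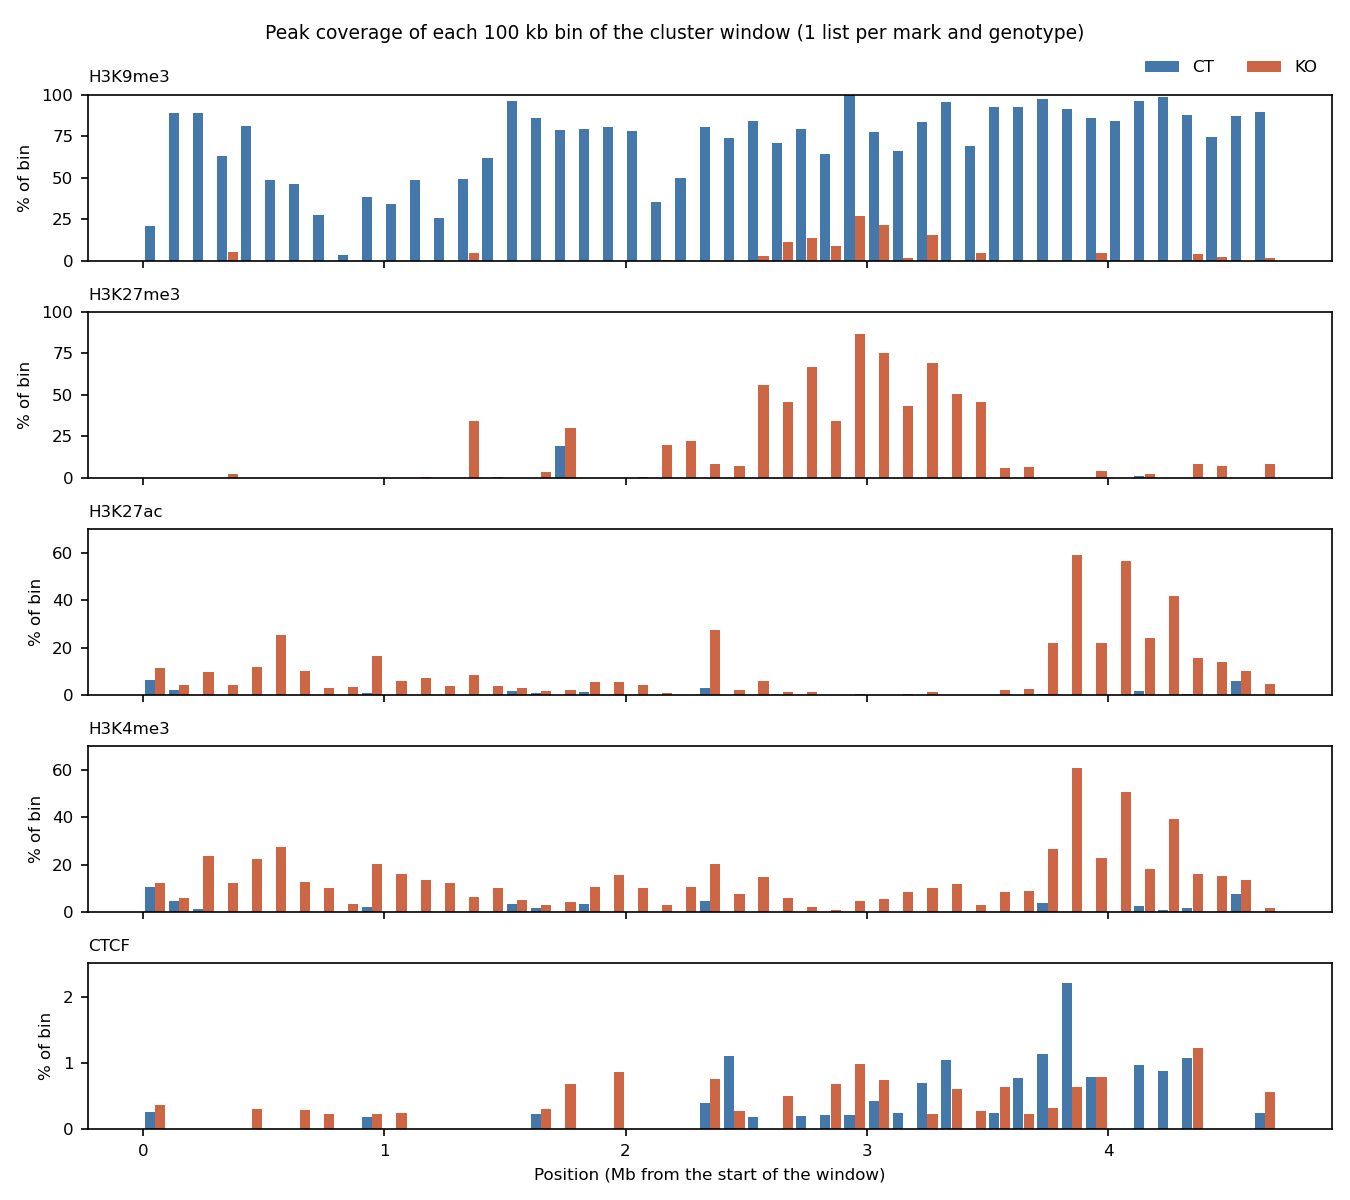
Share of each 100 kb bin covered by peaks (y, percent, with its own scale in each panel) for 5 marks along the window (x, Mb from its start), in control and KO cells, from 1 peak list each. H3K9me3 bars are lower in KO in all 47 bins, while H3K27me3 gains lie in the middle and the highest H3K27ac and H3K4me3 gains to the right of them.

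The polycomb mark H3K27me3 also appeared, most of it in a single stretch. Its peaks numbered 7 in control and 163 in KO cells, covering 20.5 and 744 kb, 0.435% and 15.8% of the window. Over the genome its share went from 12.2% to 9.37%, but on the rest of chromosome 19 it rose too, from 10.5% to 13.1%. Coverage was higher in KO in 28 bins, equal in 19 and lower in 0. A stretch of 10 bins, chr19:22200001-23200000, chosen after the values were seen, went from 0% to a mean of 57.4%, with 34.3% to 86.9% in each bin. Outside that stretch the highest share was 34.1%, in chr19:21000001-21100000, a bin that also had 8.49% H3K27ac. The widest KO peak, chr19:22467220-22497153, spanned 29934 bp. The same stretch had 79.2% H3K9me3 in control and 10.6% in KO, and held 38 of the 47 KO H3K9me3 peaks of the window. In the window, 42 of the 44 KO H3K9me3 peaks with a control partner overlapped a KO H3K27me3 peak, as did all 3 without a partner. KO H3K27me3 peaks covered 15.8% of the window and 57.4% of the stretch, and overlap beyond that was not tested.

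The highest coverage by active marks lay downstream of it. In the 7 bins from 23.4 to 24.1 Mb, also chosen after the values were seen, H3K27ac went from 0.370% to 34.5% and H3K4me3 from 1.22% to 33.5%, while H3K27me3 reached 2.09% and H3K9me3 went from 91.7% to 1.17%. H3K27ac and H3K4me3 peaked in the same bin there, chr19:23500001-23600000, at 59.2% and 60.6%. The widest new H3K4me3 peak, chr19:23552649-23579079, spanned 26431 bp, and the widest new H3K27ac peak, chr19:23721699-23749169, spanned 27471 bp. A weaker active stretch, chr19:19900001-20900000, had 9.60% H3K27ac and 16.1% H3K4me3 in KO, with 0.302% H3K27me3. Its H3K9me3 went from 48.1% to 0.528%. Only 1 of its 10 bins had a Hi-C value in every replicate. Window bins without such values had less control H3K9me3 than bins with them (59.6% against 81.0%). The part of read coverage in the lower shares of this stretch was not tested. In the H3K27me3 stretch H3K27ac and H3K4me3 coverage also went from 0% to 1.01% and 6.67%. Over the window, 39 of the 160 H3K27me3 peaks found only in KO overlapped a KO H3K4me3 peak. KO H3K4me3 peaks covered 13.8% of the window, and overlap beyond that was not tested.

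Across the 47 bins, KO coverage by H3K27me3 was inversely ranked with KO coverage by H3K27ac (Spearman rho -0.62) and by H3K4me3 (-0.53), while H3K27ac and H3K4me3 ranked together (0.82). H3K27me3 ranked with the H3K9me3 left in KO (0.75), and control H3K9me3 coverage ranked with neither KO H3K27me3 (0.11) nor KO H3K27ac (0.15). Bins are neighbours on 1 chromosome and each mark is 1 list, so these values describe the window only. Of the 310 KO-only H3K4me3 peaks, 50 overlapped a KO H3K27me3 peak and 139 a KO H3K27ac peak. KO peaks of these marks covered 15.8% and 9.86% of the window, and overlap beyond that was not tested.

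CTCF, a DNA-binding protein that marks many domain edges, had few peaks in common between the lists. The window had 50 CTCF peaks in control and 44 in KO cells, and 5 were shared (10.0% of control peaks, 4.35% to 21.4%, and 11.4% of KO peaks). In the rest of the genome 55.9% of control and 38.7% of KO CTCF peaks had a partner, and on the rest of chromosome 19 66.2% and 48.3%. On the rest of chromosome 19 the density went from 21.3 to 29.1 peaks per Mb, in the window from 10.6 to 9.36. The 45 control-only peaks all overlapped control H3K9me3 peaks, as did the positions of all 39 KO-only peaks and 4 of the 5 shared peaks. Control H3K9me3 peaks covered 71.0% of the window, and overlap beyond that was not tested.

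The Hi-C compartment signal of the cluster moved toward the active side in every bin that could be read. The deposited signal is a signed score per 100 kb bin, positive for the A and negative for the B compartment. Of 47 bins in the window, 25 had a value in all 4 replicates, most of them in the part next to the centromere, and 19 had none in any column. The mean over the 25 bins was -0.9995 and -1.04 in the control replicates and -0.188 and -0.210 in the KO replicates. All 25 bins were called higher in KO by limma (adjusted p under 0.05), against 21.5% of 26503 bins, and 0 lower at an adjusted or unadjusted p under 0.05.

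The difference was 0.821 on average (SD over bins 0.234), from 0.479 in the last bin to 1.66 in the first; the next largest, 1.34, was at 20.6 to 20.7 Mb. Only 3 of the readable bins lie before chr19:22000001, so the part far from the centromere is hardly covered. The largest gap between 2 replicates of a genotype in any of these bins was 0.351. On the rest of chromosome 19, 41.4% of 399 bins were called higher, with a median difference of 0.0514. The cluster nevertheless stayed on the B side for most of its length: 2 of the 25 bins went from a negative to a positive mean, against 5.87% of all bins. These were chr19:19700001-19800000, from -0.330 to 1.33, and chr19:20600001-20700000, from -1.20 to 0.145.

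**Figure D4:**
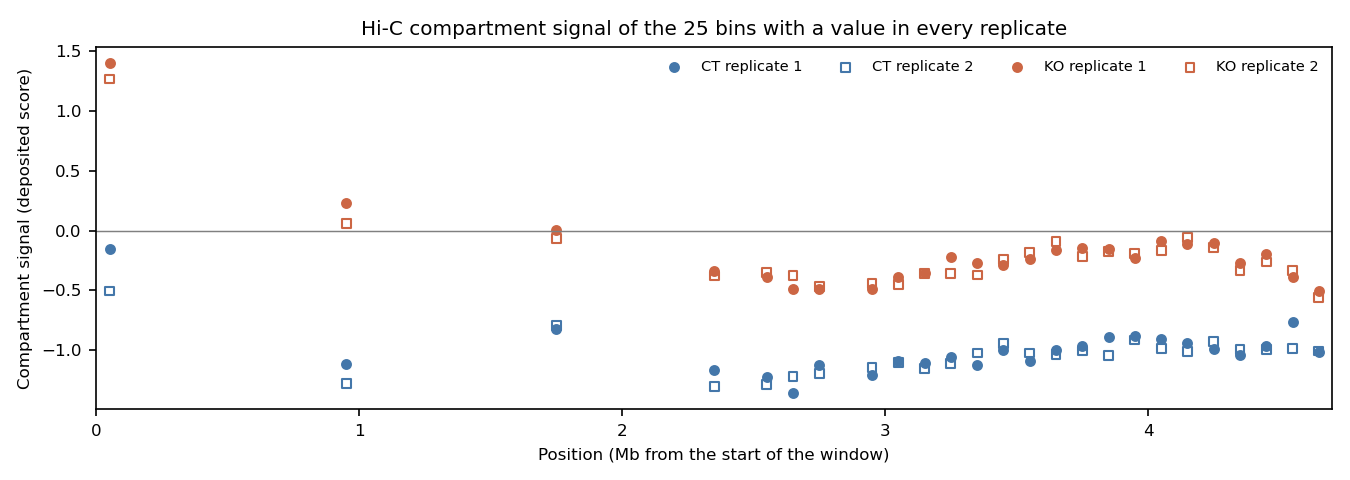
Deposited compartment signal (y, score) of the 25 window bins with a value in every replicate against position (x, Mb from the start of the window); circles and squares are replicates 1 and 2. KO points lie above control points in all 25 bins, and most stay below 0.

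The stretches chosen on H3K27me3 and on active marks were also read in the compartment signal, without a test between them. Over the 9 readable bins of the H3K27me3 stretch the mean difference was 0.760 (0.674 to 0.883), and over the 7 bins of the downstream active stretch 0.793 (0.686 to 0.889). The weaker active stretch had a single readable bin, with a difference of 1.34. The signal in KO cells was -0.378 in the first and -0.171 in the second, and in control cells -1.14 and -0.963. In the bin of the weaker active stretch it was 0.145 in KO and -1.20 in control cells.

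The lists of topologically associating domains (TADs) differed in the part next to the centromere. A TAD of control cells there, chr19:22180001-24460000, was 2280 kb long, the 89th longest of 6118, where the median was 300 kb. In KO cells 6 TADs of 200 to 640 kb lay between 22060001 and 24380000. Within the window the lists had 3 TAD edges in control and 8 in KO cells, of which 1 matched within 20 kb. The 3 control TADs that touch the window had a median length of 160 kb and the 7 KO TADs one of 360 kb. Neither list had a TAD between 19880000 and 22060001, so the edges do not cover the whole window. A CTCF peak lay within 20 kb of 4 of the 8 KO edges and of 0 of the 3 control edges. Whether this exceeds what the density of CTCF peaks alone would give was not tested. Each genotype has a single TAD list, so edges have no replicate error.

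No annotation of the build of the peak and bin files was used, so marks were not assigned to single genes. Whether the silent row ZNF208 to ZNF730, the weakly expressed genes within it, or ZNF91 lie in the H3K27me3 stretch or in the active stretch was not tested.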

How the data were processed

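RNA-seq (3 libraries per genotype), ChIP-seq and Hi-C data of control and SETDB1 KO A549 cells were used as deposited. The gene table holds counts deposited by the authors, whole numbers per gene; per the labels' protocols the kit was for stranded libraries of total RNA. The compartment table holds a signed score per 100 kb bin, deposited by the authors for each replicate, whose method is not given in the sources used here. Peak and TAD lists hold positions only, 1 list per mark and genotype, deposited by the authors; whether replicates were pooled is not given. The submitters' processing notes name STAR 2.6.1c, edgeR 3.30.0, Bowtie2 2.2.3, SAMtools 1.5, Picard, MACS2 and hg19, without their roles. How reads shared by paralogs were counted, and the strand setting, are not given in the sources used here. No per-sample column went unmapped (0 columns).

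Counts were tested in R 4.3.3 with the robust quasi-likelihood F-test of edgeR 4.0.16, with genotype as the term, TMM scaling, genes kept by filterByExpr, and Benjamini-Hochberg adjustment over all 17767 genes tested. CPM used TMM-scaled library sizes, except the marker sums and the members' summed level, which used total counts. SE is the absolute log2 fold change divided by the root of F. Where control counts were 0, a floor of 3 counts over the control group gave a lower bound; with 1 count, a pooled ratio with its 95% counting interval is given. Compartment scores were tested with limma 3.58.1 over all 26503 bins with a value in every replicate. Peaks were compared in Python 3.11.15 with numpy 2.4.6, pandas 2.3.3 and scipy 1.17.1, by an overlap of at least 1 bp, with 95% Wilson intervals that cover counting error only. Promoters were aligned with Biopython 1.88, and plots were drawn with matplotlib 3.10.9. Of 62486 identifiers 93.8% matched a symbol; RefSeq (GRCh38.p14) gave gene order for 87.9% of tested genes and no coordinates. Both fits were tested on simulated data. There the share of false calls by edgeR lay above the adjusted p threshold and that by limma below it, so calls near the threshold are less certain than their adjusted p; the largest adjusted p of a member is 1.7e-06. Libraries of the same genotype differed by more than sampling noise in every pair.

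The members and lists were chosen with earlier results of these data known. Values in every library and full statistics are given for SETDB1, the 10 members with the largest absolute log2 fold change, ZNF91, ZNF93, and any member called lower or not called (there was none); of other lists, the 3 largest changes each way. Alternatives were DESeq2 1.42.0, limma voom, other scalings and filters, other rules of overlap, width and window, removal of each replicate in turn, and a replicate block. Same-numbered RNA-seq libraries deviated together at r = 0.11, 0.064 and 0.047, so the numbers were not taken as pairs. Protein features and inputs were not analysed here.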

Additional observations from a re-analysis of the deposited data

How the results depend on the processing

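Of 691 values under alternatives, 656 stayed on the same side of their limits and 35 moved; none reversed. Each of the 503 single-gene values, SETDB1 included, stayed on the same side, with adjusted p up to 5.0e-05. Under every setting 35 of 35 members were called higher, except with the CPM filter (34 of 34, without ZNF729). Members that passed the filter only through their KO level could hardly be called otherwise, so their calls say little about the settings. The 12 members with at least 30 control counts were all called higher under each setting. The fitted median of the members was 9.03 with the CPM filter, 8.31 with DESeq2, 7.14 with limma voom and 8.78 to 9.17 when each library was left out; the cause was not tested. The median with lower bounds was 5.79 to 6.49 and that of the 12 members with at least 30 control counts 1.22 to 1.39 when each library was left out; fewer control libraries raise the floor. With the replicate block, 35 members were called (fitted median 8.97) and 25 bins (mean difference 0.821), so the block changed no call on the cluster. Same-numbered Hi-C deviations correlated at -0.0026. The mean compartment difference was 0.855 with scaled columns, and 1 bin changed sign in the inner window.

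Requiring a reciprocal overlap of 50% gave partner shares in control and KO of 1.86% and 12.8% (H3K9me3), 56.5% and 6.08% (H3K27ac) and 56.7% and 5.00% (H3K4me3), and 28.6% of control H3K27me3 peaks. With peaks at least as wide as their list's median, H3K9me3 log2 ratios of KO over control were -5.98 in length and -4.60 in number, with shares of 3.65% and 100%; H3K27ac ratios were 5.10 and 4.07, with shares of 83.3% and 4.95%; the H3K27me3 control share was 100%. In the inner window the ratios were 5.42 and 4.18 with a KO share of 5.53% for H3K27ac, and 4.58 and 4.25 with 5.26% for H3K4me3. The cause of these moves was not tested. Peak and TAD lists allow no replicate check, and their depth is unknown. Zinc finger counts of the proteins were not run.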
